A study of Mus musculus with 7 samples.

Results

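The genes described here encode 8 cytokines of type 1 and type 2 immunity: Il4, Il5, Il9, Il13, Ifng, Tnf, Il2 and Il3. They were found by their symbols among the 19736 gene entries of lung regulatory T (Treg) cell libraries, where 6 of the 8 had a row. Il9 and Il3 had no row in the tables used here and have no value below. The libraries were made from Foxp3EGFP+ Treg cells sorted from whole digested lungs, 3 from CCR6+ cells and 4 from CCR6- cells, the controls. All mice carried Il4raR576, an allele of the alpha chain of the IL-4 receptor, and the Foxp3EGFP reporter, so the libraries hold no cells with the common receptor allele. The female mice were 5 to 7 weeks old, received 100 µg of ovalbumin (OVA) intraperitoneally with a boost after 2 weeks, inhaled 1% OVA for 30 min on each of 3 days from day 29, with tissue taken on day 32. No label ties a library to a mouse or a pool of mice, so the p-values cover the scatter among the 7 libraries as made, part of which may be technical.

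T helper cells are grouped by the cytokines they secrete. Type 1 cells make interferon gamma (Ifng), which activates macrophages, together with IL-2 and TNF. Type 2 cells make IL-4, which drives IgE class switching in B cells, IL-5, which sustains eosinophils, and IL-13, which acts on airway epithelium and smooth muscle. IL-9 and IL-3 support mast cells and basophils. In Treg cells Foxp3 holds many of these genes down, Il2 among them.

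Il4, Il13 and Il5 lie in 1 cluster on mouse chromosome 11, and Ifng lies alone among the members on chromosome 10 (mm10, GENCODE mouse release 21). Il4 occupies chr11:53602982-53618669 on the minus strand. Il13 follows at chr11:53631324-53634702 on the same strand, with its start 16 kb from that of Il4. Il5 stands at chr11:53720794-53725106 on the plus strand, beyond the DNA repair gene Rad50. Ifng is at chr10:118441046-118445892 on the plus strand, Tnf at chr17:35199381-35202007 on the minus strand, and Il2 at chr3:37120523-37125959 on the minus strand. Il3 is also on chromosome 11, at chr11:54265303-54267277, 649 kb from Il4. All are annotated as protein coding.

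The promoters of the 3 clustered type 2 genes and of Ifng are shown because the first 3 shared their highest library while Ifng had a different pattern. Each line is the 250 bases before the RefSeq transcription start (GRCm38.p6), 5′ to 3′ on the strand of the gene, with each GGAAA or its reverse complement TTTCC in capitals, the core bound by NFAT, the factor that couples T cell receptor signalling to cytokine transcription. Promoters of 8 of the 8 genes were matched in RefSeq by symbol.
Il4 (chr11:53618666-53618915, minus strand): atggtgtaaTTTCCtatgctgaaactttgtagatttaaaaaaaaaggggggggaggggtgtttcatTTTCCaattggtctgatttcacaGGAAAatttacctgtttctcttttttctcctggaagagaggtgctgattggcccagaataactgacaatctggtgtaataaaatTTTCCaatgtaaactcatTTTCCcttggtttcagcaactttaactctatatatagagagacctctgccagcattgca
Il13 (chr11:53634703-53634952, minus strand): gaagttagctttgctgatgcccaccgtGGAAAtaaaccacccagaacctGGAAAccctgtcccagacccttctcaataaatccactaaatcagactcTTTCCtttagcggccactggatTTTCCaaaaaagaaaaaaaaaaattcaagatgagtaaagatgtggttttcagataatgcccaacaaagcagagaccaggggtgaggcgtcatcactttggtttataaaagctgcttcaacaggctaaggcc
Il5 (chr11:53720544-53720793, plus strand): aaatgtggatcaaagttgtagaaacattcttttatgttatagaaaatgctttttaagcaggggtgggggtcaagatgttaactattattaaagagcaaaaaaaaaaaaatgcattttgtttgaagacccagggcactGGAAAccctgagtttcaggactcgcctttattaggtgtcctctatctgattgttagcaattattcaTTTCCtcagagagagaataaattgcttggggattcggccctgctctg
Ifng (chr10:118440796-118441045, plus strand): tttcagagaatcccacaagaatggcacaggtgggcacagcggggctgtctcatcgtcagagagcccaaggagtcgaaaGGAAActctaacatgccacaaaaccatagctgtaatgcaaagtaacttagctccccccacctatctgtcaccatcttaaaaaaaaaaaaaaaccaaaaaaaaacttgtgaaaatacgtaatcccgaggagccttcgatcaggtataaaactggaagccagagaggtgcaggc
The window of Il4 held 5 such cores, that of Il13 4, that of Il5 2 and that of Ifng 1. The same core occurred in 55.6% of all 32851 promoter entries of this length, so its presence does not set these genes apart. A GATA site, searched on both strands as GATAA or GATAG with an A or a T before it, had 1 match each in Il13, Il5 and Ifng and 0 in Il4, against 26.5% of all promoters with a match. The AP-1 site TGANTCA and the T-box core GTGTGA had no match in these 4 windows and occurred in 6.75% and 12.3% of all promoters. These motifs can overlap one another, and a match is a description of letters in this window.

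The depth of the libraries bears on every low gene. The deposited values are read counts scaled per library by a size factor, called normalised counts here, and the reads behind them could be recovered as whole numbers. CCR6+ replicate 2 had 11607780 recovered reads, against 27520975 to 47261246 in the other 6 libraries, and 1 read in it is worth 2.27 normalised counts against 0.677 to 1.02 in the others. It also had the fewest genes at 0, 2.16% against 6.89% to 29.7%. Ccr6, the receptor used for the sort, ranged from 2750 to 7309 normalised counts in CCR6+ and from 271 to 909 in CCR6-. Even for Ccr6, with a log2 difference of 3.19, limma gave an adjusted p of 0.302 and edgeR 0.212, while DESeq2 gave 8.0e-08, so a count of 0 by limma does not show that genes were alike. Foxp3 was 12206 in CCR6+ replicate 2 and 19376 to 50875 in the others, with no difference that kept its sign under other settings. The summed level of 8 Treg marker genes was 94005 in CCR6+ replicate 2 and 168062 to 281431 in the other 6.

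Marker lists of other lung cells stood higher in CCR6+ replicate 2 as well. Its 12 lung epithelial markers summed to 81821 normalised counts, against 1902 to 11990 in the other 6 libraries. The 12 endothelial and stromal markers summed to 66954 against 5544 to 10358. For the 12 mast cell and basophil markers, of cells that also make IL-4 and IL-13, the sum was 11747 in that library, 1180 to 2272 in the other CCR6+ libraries and 384 to 1050 in CCR6-. Its largest parts in CCR6+ replicate 2 were Kit at 6349, Hdc at 2150 and Gata2 at 1813, while Tpsab1 had 346, Cpa3 287 and Mcpt8 123. Which cells gave the Kit, Hdc and Gata2 reads was not tested. All 12 markers were above 0 in CCR6+ replicate 2, while the mast cell proteases Mcpt4 and Tpsb2 were at 0 in each of the other 6. Mcpt4 had 2.27 normalised counts there, which is 1 read, and Tpsb2 had 25.0. Group 2 innate lymphoid cells are another source of IL-5 and IL-13. The sum of their 12 markers was lowest in this library, at 48435 against 62171 to 118162. That sum is not of these cells alone, since it includes Il2ra, also on the Treg list, at 7823 in this library. Of the 12 markers, 4 had their highest value in CCR6+ replicate 2, among them Hs3st1 at 707. Natural killer, CD8 and gamma-delta T cell markers, 10 of 12 with a row, summed to 5129 in it and 2177 to 4175 elsewhere. Without CCR6+ replicate 2 a shift remained in several lists, though limma called none of their genes. Macrophage and monocyte markers were then positive for 11 of 11 kept for testing, with a median log2 difference of 1.44. B and plasma cell markers were positive for 10 of 11 (1.74), eosinophil and neutrophil markers for 9 of 10 (1.81). Natural killer, CD8 and gamma-delta markers had 4 positive and 6 negative (-0.073). The median of all genes kept was 0.037. The part of these cells in the values below was not tested, and in bulk RNA fewer cells of a type and less RNA per cell cannot be told apart.

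**Figure D1:**
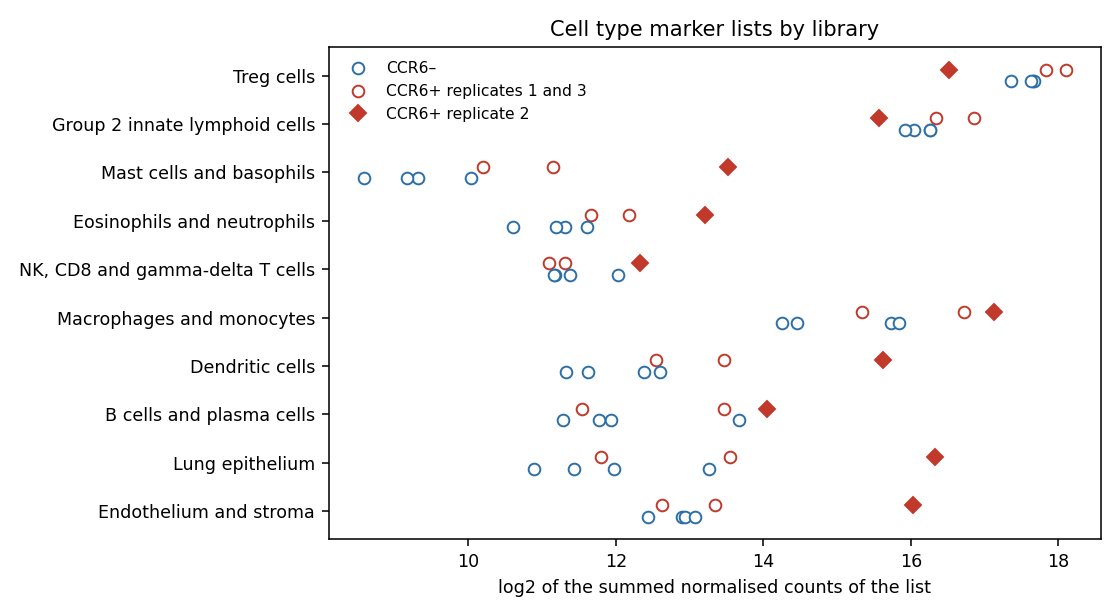
Summed normalised counts (log2, horizontal axis) of 10 cell type marker lists in each library. Circles are single libraries, and the filled diamond is CCR6+ replicate 2, which is lowest for the Treg and innate lymphoid lists (94005 and 48435) and highest for the other 8.

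Levels of the members differ widely and were compared per kb of annotated exon. Tnf had the highest level, with a median of 348 normalised counts per kb over the 7 libraries and a range of 183 to 550. Ifng came next with a median of 125 and a range of 3.14 to 163, below Tnf in 7 of 7 libraries and with no overlap of the ranges. Il5 had a median of 8.63, Il4 of 4.96, Il2 of 4.35 and Il13 of 0.763 per kb. The ranges of each of these neighbours in the order overlapped, and Il4 stood above Il2 in 4 of 7 libraries, so the order below Ifng is not firm. By mean normalised count, Tnf lay at percentile 49.5 of the genes kept for testing and Ifng at 28.8, while Il5 lay at 13.7 and Il4 at 8.94. Tnf, Ifng and Il5 passed the filter of at least 10 normalised counts in at least 3 libraries. Il4 reached 10 in 2 libraries and Il13 and Il2 in 1 each, so they did not, and their tests come from a fit of all 19636 genes with a read.

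**Figure D2:**
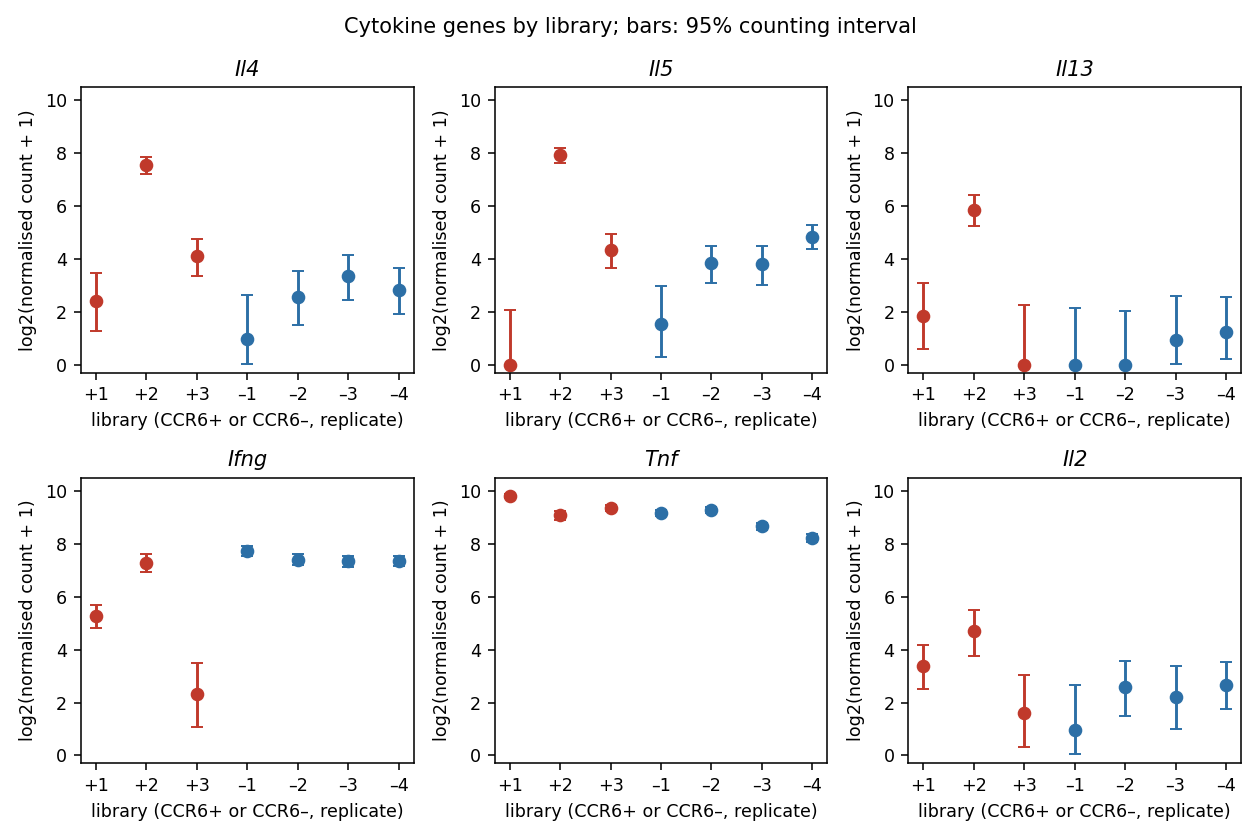
Log2(normalised count + 1) of the 6 measured cytokine genes (vertical axes) in the 3 CCR6+ libraries (red) and the 4 CCR6- libraries (blue), with exact Poisson 95% intervals of the reads as bars. Ifng is level across the CCR6- libraries and spread from 4.06 to 154.7 normalised counts across CCR6+, while Il4, Il5 and Il13 stand out in CCR6+ replicate 2.

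Ifng, the defining type 1 cytokine, was lower in CCR6+ than in CCR6- cells in each library, but not past the test. It had 37.8, 154.7 and 4.06 normalised counts in CCR6+ replicates 1 to 3, from 44, 68 and 4 reads. In CCR6- replicates 1 to 4 it had 210.9, 169.0, 161.8 and 163.1, from 223, 204, 176 and 241 reads. The CCR6- libraries lay within a narrow band and the CCR6+ libraries spread widely, with CCR6+ replicate 2 close to the band. The means were 65.5 ± 79.0 (SD, n = 3) and 176 ± 23.3 (SD, n = 4), 2.69 times higher in CCR6-. The log2 difference, CCR6+ minus CCR6-, was -2.49 with a standard error (SE) of 1.08, and limma gave an adjusted p of 0.478. Over all genes tested limma called 0%, and 1540 genes (10.6%) had an unadjusted p under 0.05. EdgeR on the recovered reads called 2 genes (0.0137%) and DESeq2 679 (5.03%). None of the 6 members was called by edgeR and none of the 4 to which DESeq2 gave an adjusted p, which left out Il13 and Il2.

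The groups of Ifng did not overlap on the deposited scale, a pattern shared by 5.53% of all genes in the lower direction. CCR6+ replicate 2 came closest to the CCR6- libraries. Its 68 reads have a Poisson 95% interval of 120 to 196 normalised counts, which covers the values of 3 of the 4 CCR6- libraries. As reads per 1000000 recovered reads (RPM) its value was 5.86, inside the CCR6- range of 5.10 to 7.17, while CCR6+ replicates 1 and 3 had 1.25 and 0.145. Without CCR6+ replicate 2 the CCR6+ mean was 20.9 and the CCR6- mean 8.42 times higher, with a log2 difference of -3.65 (limma adjusted p = 0.466). Without CCR6+ replicate 3, the library with 4 reads, the difference was -1.18 (adjusted p = 0.580). With CCR6+ replicate 2 left out, DESeq2 gave an adjusted p of 0.0091 and called 0.65% of genes lower in CCR6+, whereas edgeR gave 0.421. Markers of natural killer, CD8 and gamma-delta T cells, which also make interferon gamma, summed to 2177 to 5129 in CCR6+ and 2290 to 4175 in CCR6-. The markers did not go 1 way: 6 had a positive and 4 a negative difference, and 4 and 6 without CCR6+ replicate 2. Eomes, named after its values were seen, had 364 in CCR6+ replicate 2 and a mean of 88.6 in the other CCR6+ libraries. In CCR6- it had 225 to 351 (-1.12, limma adjusted p = 0.539). The part of these cells in the Ifng difference was not tested.

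Tnf, an inflammatory cytokine made by many activated leukocytes, was present in every library and overlapped between the groups. It had 901, 539 and 655 normalised counts in CCR6+ replicates 1 to 3, from 1049, 237 and 645 reads. In CCR6- replicates 1 to 4 it had 570, 623, 406 and 299, from 603, 752, 442 and 442 reads. The lowest CCR6+ value lay inside the CCR6- range, and CCR6+ replicates 1 and 3 lay above it. The means were 698 ± 185 (SD, n = 3) and 475 ± 149 (SD, n = 4), and the log2 difference of 0.58 (SE 0.33) had a limma adjusted p of 0.519. Tnf carries the most reads of the members, 4170 in all, so its counting error is small.

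Il2, the growth factor that Treg cells take up but make little of, came to 43 reads over the 7 libraries. It had 9.45, 25.0 and 2.03 normalised counts in CCR6+ and 0.946, 4.97, 3.68 and 5.41 in CCR6-. The 11 reads of CCR6+ replicate 1 and the 11 of replicate 2 made the high values, and replicate 3 lay within the CCR6- range. The log2 difference was 1.12 (SE 0.81, limma adjusted p = 0.551), and it turned to -0.68 under quantile normalization. A difference in Il2 was not detectable at this depth.

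The clustered type 2 cytokine genes had their highest values in CCR6+ replicate 2, and at most 41 reads in any single one of the other 6 libraries. Il4 had 4.30, 186.5 and 16.2 normalised counts in CCR6+, from 5, 82 and 16 reads. In CCR6- it had 0.946, 4.97, 9.20 and 6.09, from 1, 6, 10 and 9 reads. CCR6+ replicate 2 was high, replicate 3 lay above the CCR6- values with a Poisson 95% interval of 9.28 to 26.4 that overlaps that of CCR6- replicate 3, and replicate 1 lay within them. The means were 69.0 ± 101.9 (SD, n = 3) and 5.30 ± 3.41 (SD, n = 4), with a log2 difference of 2.26 (SE 1.26, limma adjusted p = 0.525). Without CCR6+ replicate 2 the CCR6+ mean was 10.3 and the log2 difference 0.83 (adjusted p = 0.893).

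Il5 had 0, 243.4 and 19.3 normalised counts in CCR6+ replicates 1 to 3, from 0, 107 and 19 reads. In CCR6- replicates 1 to 4 it had 1.89, 13.3, 12.9 and 27.7, from 2, 16, 14 and 41 reads. The value of 0 allows up to 3 reads, or 2.58 normalised counts, and the CCR6+ libraries hold both the lowest and the highest value. The means were 87.6 ± 135.3 (SD, n = 3) and 13.9 ± 10.6 (SD, n = 4). The log2 difference of 0.59 (SE 1.87, limma adjusted p = 0.886) became -1.33 (adjusted p = 0.912) when CCR6+ replicate 2 was dropped, 2.64 when CCR6+ replicate 1 was dropped, -0.066 when CCR6- replicate 1 was dropped and -0.43 under quantile normalization, so Il5 has no stable direction between the groups.

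Il13 was all but limited to CCR6+ replicate 2. It had 2.58, 56.9 and 0 normalised counts in CCR6+, from 3, 25 and 0 reads, and 0, 0, 0.920 and 1.35 in CCR6-, from 0, 0, 1 and 2 reads. Every library but CCR6+ replicate 2 was at or under the 3 reads that a count of 0 allows, so no fold is given between the groups. The fitted log2 difference was 2.02 (SE 1.34, limma adjusted p = 0.544) and 0.38 without that library.

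Read as a share, CCR6+ replicate 2 gave 63.6% of all Il4 reads, 53.8% of Il5 reads, 80.6% of Il13 reads and 25.6% of Il2 reads, although it is the shallowest library. Its shares of Ifng and Tnf reads were 7.08% and 5.68%. The library held the highest value of 4 of the 6 members, against 43.6% of the genes kept and 54.2% of all genes with a read, so such a maximum is common in these data. With 1 added to both, its Il4 was 28.7 times the median of the other 6 libraries, and 14.9% of genes had a larger ratio. Il13 stood at 39.6 times (9.98% of genes larger), Il5 at 17.4 times (23.4% larger) and Il2 at 4.89 times (40.9% larger), with 1.98 as the median of all genes. Ifng and Tnf were at 0.952 and 0.904 times the median of the other 6 libraries. Within CCR6+, Ifng was also highest in this library, with 37.8 and 4.06 normalised counts in replicates 1 and 3 and 154.7 in CCR6+ replicate 2. The mast cell, epithelial and stromal marker sums given above were highest in this same library.

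**Figure D3:**
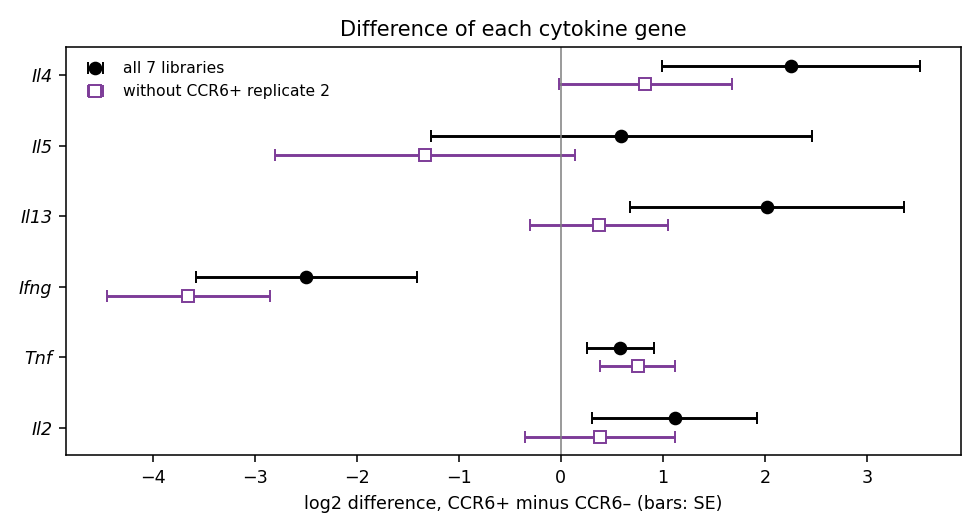
Log2 difference, CCR6+ minus CCR6- (horizontal axis), of the 6 measured cytokine genes with SE bars, from all 7 libraries (circles) and without CCR6+ replicate 2 (squares). Without that library Il4 moves from 2.26 to 0.83 and Il5 from 0.59 to -1.33 (Il5 and Il2 are also negative under quantile normalization), while Ifng moves from -2.49 to -3.65.

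The genes between and beside the clustered cytokines did not share 1 pattern. Rad50, which lies between Il13 and Il5 and contains their locus control region, had 1929 to 2013 normalised counts in CCR6+ and 1917 to 3499 in CCR6-, with overlapping groups. Of 8 neighbours kept, 6 had a positive and 2 a negative difference, the median was 0.32 against 0.097 over all genes, limma called 0 of 8, and 5 had their highest value in CCR6+ replicate 2. Without that library the split was 4 positive to 4 negative and the median 0.033. Slc22a5, a carnitine transporter 273 kb from Il4, was lower in each CCR6+ library, with 526 to 732 against 985 to 1859 (log2 difference -1.08, limma adjusted p = 0.410), and DESeq2 gave an adjusted p of 0.0073, and 0.019 without CCR6+ replicate 2. Its neighbour Slc22a4, a related organic cation transporter, went the other way, with 33.5 to 143 against 0 to 15.6 (3.72, adjusted p = 0.431). P4ha2, a collagen prolyl hydroxylase subunit, had 18.9, 238.8 and 20.3 in CCR6+ and 0 to 14.7 in CCR6-. Higher values without overlap, as in these last 2 genes, were seen in 7.96% of all genes.

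**Figure D4:**
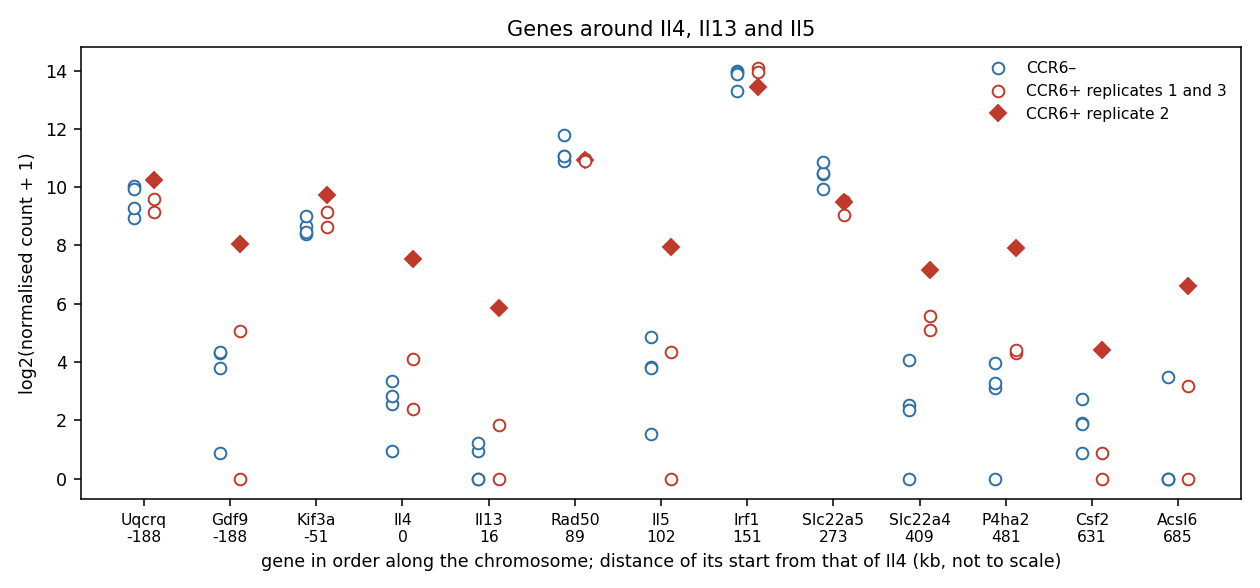
Log2(normalised count + 1) of genes around Il4 (vertical axis), in chromosomal order with the distance of each start from that of Il4 in kb. Open circles are single libraries (CCR6- blue, CCR6+ replicates 1 and 3 red) and the diamond is CCR6+ replicate 2, which stands apart at Il4, Il13 and Il5 (186.5, 56.9 and 243.4 normalised counts) and also at Gdf9, P4ha2, Csf2 and Acsl6, but not at Rad50.

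Of 18 type 2 lineage genes, 17 passed the filter on low values, and limma called none of them. Without overlap, 2 of the 17 lay higher in CCR6+ and 0 lower, against 7.96% and 5.53% of all genes kept. Gata3, the factor that opens the type 2 cluster, had 5921 to 10854 normalised counts in CCR6+ and 9402 to 11027 in CCR6-, with a difference of -0.26 (adjusted p = 0.633) that is 0.0016 without CCR6+ replicate 2. Of 17 genes of the list kept, 12 had a positive difference against 56.9% of all genes, with a median of 0.46. Without CCR6+ replicate 2 the positive ones were 15 of 17 and the median 0.635. Over all genes kept, 7810 of 14582 were then positive, with a median of 0.037. All 8 Treg markers were also positive in that setting, with a median of 0.305, so a positive shift was not particular to the type 2 list. Hpgds, the prostaglandin D2 synthase of type 2 cells and mast cells, had 131, 173 and 121 in CCR6+ and 49.2, 35.6, 69.9 and 44.0 in CCR6-. These groups lay apart, at 142 ± 27.5 (SD, n = 3) and 49.7 ± 14.6 (SD, n = 4), with a log2 difference of 1.52 (SE 0.27, limma adjusted p = 0.302), which was -0.053 under quantile normalization. DESeq2 gave Hpgds an adjusted p of 0.044 with all libraries and 0.380 without CCR6+ replicate 2. Rbpj, the DNA-binding partner of Notch, had 453 to 789 against 296 to 381 without overlap (0.73, adjusted p = 0.449). Maf, a direct activator of Il4, had 5870, 3160 and 5318 against 2691, 3310, 2863 and 3601, with only its CCR6+ replicate 2 inside the CCR6- range (0.58, adjusted p = 0.482). DESeq2 gave Maf an adjusted p of 0.128, and 0.0012 without that library.

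Type 1 lineage genes split evenly. Of the 18 kept, 2 lay higher and 2 lower without overlap, against 7.96% and 5.53% of all genes kept. Of 18 kept, 9 had a positive and 9 a negative difference, with a median of -0.022 that turned to 0.064 when all libraries were set to equal totals, and limma called 0 of 18. Tbx21, which encodes T-bet, the activator of Ifng, had 730, 692 and 472 normalised counts in CCR6+ and 836, 670, 943 and 1199 in CCR6-, with overlap (-0.52, adjusted p = 0.502). Nkg7, a protein of cytotoxic granules, lay lower without overlap, at 599 ± 214 (SD, n = 3) against 1216 ± 381 (SD, n = 4) (-1.04, SE 0.36, limma adjusted p = 0.449). Cxcr3, the chemokine receptor of type 1 T cells, named here after its values were seen, had 2677 to 5598 against 6076 to 6909 (-0.63, adjusted p = 0.480). Il18r1, a chain of the IL-18 receptor, lay higher, at 2447, 2068 and 2422 in CCR6+ and 1450, 1113, 938 and 687 in CCR6- (1.19, SE 0.28, limma adjusted p = 0.397), and DESeq2 gave an adjusted p of 0.0060 with all libraries and 0.0095 without CCR6+ replicate 2. Hlx, a homeobox factor of type 1 cells, also lay higher, with 38.7, 718.8 and 104.6 against 5.41 to 33.1 (2.98, adjusted p = 0.455), and its highest value was in CCR6+ replicate 2. DESeq2 gave Hlx an adjusted p of 0.015 with that library and 0.622 without it, where the limma difference was 1.82.

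**Figure D5:**
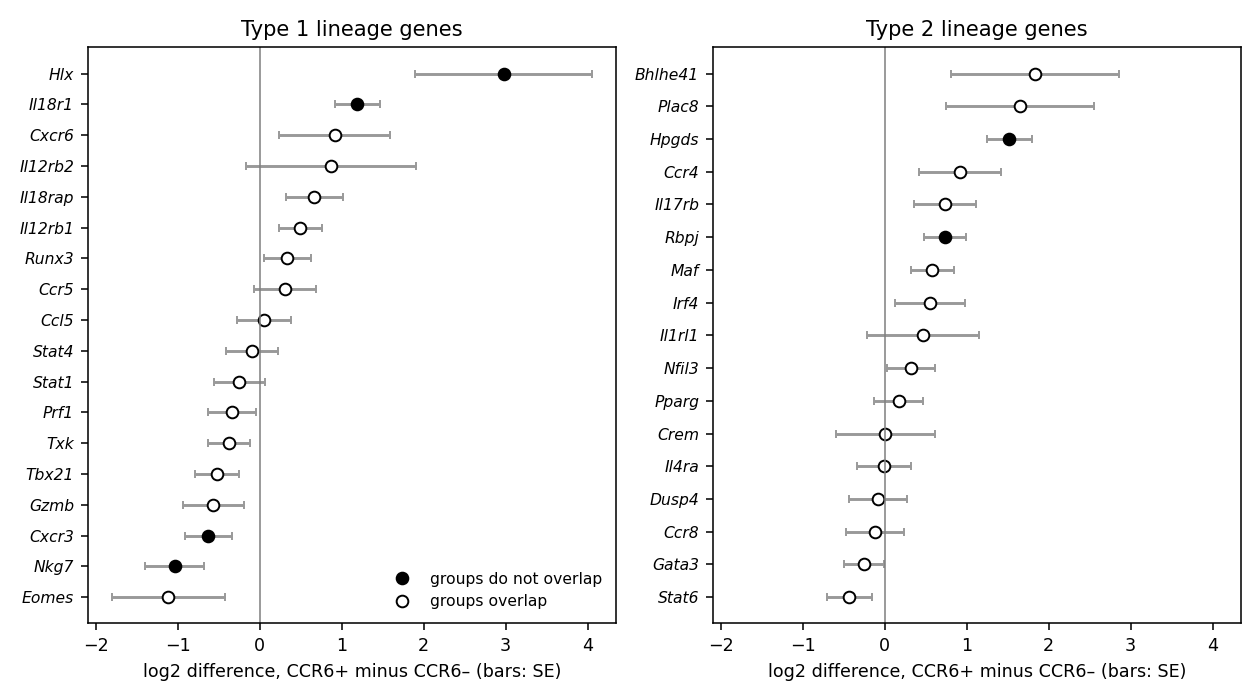
Log2 difference, CCR6+ minus CCR6- (horizontal axis), with SE bars, of the type 1 and type 2 lineage genes kept for testing. Filled circles mark genes whose groups do not overlap: Hlx, Il18r1, Cxcr3 and Nkg7 among type 1 genes, Hpgds and Rbpj among type 2 genes (Hpgds is negative under quantile normalization). Over all genes kept, 7.96% lay higher and 5.53% lower without overlap.

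Among receptors of the 8 cytokines limma called 0 of 14 kept. Without overlap, 3 lay higher in CCR6+ and 0 lower, against 7.96% and 5.53% of all genes kept. Differences were positive for 8 and negative for 6, with a median of 0.22, and without CCR6+ replicate 2 for 11 and 3, with a median of 0.43. Il13ra1, the chain that joins IL-4 receptor alpha to bind IL-13, had 409, 1654 and 383 normalised counts in CCR6+ and 166, 141, 93.8 and 77.8 in CCR6-. The groups lay apart with the highest value in CCR6+ replicate 2 (2.47, SE 0.59, limma adjusted p = 0.401), and DESeq2 gave an adjusted p of 0.0015 with it and 0.013 without it. The limma difference without it was 1.78. Csf2rb2, the IL-3 receptor beta chain, had 133, 307 and 51.8 against 37.8, 72.9, 11.03 and 12.2 with overlap (2.32, adjusted p = 0.463). Il3ra, the IL-3 receptor alpha chain, had 350 to 417 against 264 to 321 without overlap (0.42, adjusted p = 0.465, -0.28 under quantile normalization). Tnfrsf1a, a TNF receptor named after its values were seen, had 1084 to 2632 against 255 to 868 without overlap (1.33, adjusted p = 0.471).

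Genes listed as activators or repressors of cytokine genes included some whose groups lay apart, in both directions, none past limma's test. Of 18 activators kept, 2 lay higher and 0 lower without overlap, and of 18 repressors kept 0 and 3. Over all genes kept, 7.96% lay higher and 5.53% lower without overlap. Of 18 activators kept, 11 had a positive difference with a median of 0.14, and limma called 0. Bhlhe40, a factor needed for cytokine output of helper T cells, had 10938, 11142 and 8755 normalised counts in CCR6+ and 6222 to 6752 in CCR6- (0.64, SE 0.16, limma adjusted p = 0.415), and DESeq2 gave an adjusted p of 2.0e-04, and 0.019 without CCR6+ replicate 2. Fosl2, an AP-1 subunit, had 1358 to 2794 against 895 to 1279 without overlap (0.84, limma adjusted p = 0.455), and DESeq2 gave an adjusted p of 0.077, and 0.032 without CCR6+ replicate 2. Fosb, another AP-1 subunit, had 301 to 673 against 234 to 349 with overlap (0.72, adjusted p = 0.478). Of 18 repressors kept, 7 had a positive and 11 a negative difference, with a median of -0.065 that was 0.021 at equal library totals and 0.083 under quantile normalization, and limma called 0. Without CCR6+ replicate 2 the counts turned to 13 positive and 5 negative, with a median of 0.28.

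Satb1, a chromatin organiser that Foxp3 represses in Treg cells, had the smallest p among the genes listed as repressors. Whether it represses or activates any of the cytokine genes was not tested, so its level is not a reading of repression. Satb1 had 8707, 7607 and 9293 normalised counts in CCR6+ and 18920, 16292, 24315 and 25126 in CCR6-. The groups lay well apart, with 8536 ± 856 (SD, n = 3) against 21163 ± 4259 (SD, n = 4). The log2 difference was -1.29 (SE 0.21), limma gave an adjusted p of 0.302, and DESeq2 called it with and without CCR6+ replicate 2. Rc3h1, which encodes the RNA-binding protein Roquin-1, lay lower without overlap, at 1645 to 1829 against 1845 to 2439 (-0.34, adjusted p = 0.494). Ikzf1, which encodes Ikaros and was named after its values were seen, had 3836 to 4100 against 4346 to 5059 (-0.22, adjusted p = 0.551). Bcl6, a repressor of type 2 genes, had 783 to 1197 against 571 to 823 with overlap (0.51, adjusted p = 0.482).

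Other T cell cytokine genes gave 9 positive and 3 negative differences among 12 kept of 16, with a median of 0.75, and limma called 0 of 12. Of the 12, 2 lay higher in CCR6+ and 0 lower without overlap, against 7.96% and 5.53% of all genes kept. Tnfsf11, which encodes RANKL, had 1094, 1517 and 1136 normalised counts in CCR6+ and 657, 795, 734 and 501 in CCR6-, with the groups apart (0.90, SE 0.23, limma adjusted p = 0.419), and DESeq2 gave an adjusted p of 0.019, and 0.181 without CCR6+ replicate 2. Il21, a cytokine of helper cells in germinal centres and of Th17 cells, had 2.58, 741.6 and 34.5 against 0, 0, 2.76 and 12.2. It repeated the pattern of the type 2 cytokines, with its high value in CCR6+ replicate 2 (4.10, SE 1.91, limma adjusted p = 0.484). DESeq2 gave Il21 an adjusted p of 0.034, and without that library the limma difference was 2.09. Areg, which encodes the tissue repair factor amphiregulin, had 1410, 532 and 1092 against 399 to 748 with overlap (0.87, limma adjusted p = 0.488), and DESeq2 gave an adjusted p of 0.172, and 0.027 without CCR6+ replicate 2. Tnfsf14, which encodes LIGHT and was named after its values were seen, had 90.2 to 216 against 0 to 66.2 (3.02, adjusted p = 0.494). The difference was 1.67 without CCR6- replicate 4, where Tnfsf14 was at 0.

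The genes whose values followed a member most closely over the 7 libraries were taken from 12366 genes with a mean of at least 50, as a description without a test. For Il4 they included Vdr, the vitamin D receptor, with Pearson's r of 0.990, and Pgap2 with 0.980. As many as 298 genes reached an r of 0.9 with Il4, and both named also had their highest value in CCR6+ replicate 2. Without the 2 libraries farthest from the median of Il4, r was 0.889 and 0.926 over 5 libraries. For Ifng they were Mettl13 with 0.996, Cbarp with 0.9497 and Prf1, which encodes perforin, with 0.947, among 22 genes at 0.9 or more. Without the 2 libraries farthest from the median of Ifng these became 0.766, -0.602 and 0.098, so the likeness of Cbarp and Prf1 to Ifng rests on those libraries. For Il13 they were Tmem67, Ncs1 and Rab3d, at 0.988, 0.983 and 0.978, among 161 genes at 0.9 or more. Il13 had at most 3 reads outside CCR6+ replicate 2, where these 3 genes were also highest. For Il2 they included Gpd1 and Bspry, at 0.966 and 0.957.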

How the data were processed

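Treg cell RNA of 7 libraries (3 CCR6+, 4 CCR6-) was converted to cDNA with a SMART-Seq v4 kit and made into libraries with a KAPA Hyper Prep kit, per the labels' protocols. The submitters' processing notes list HTSeq 0.6.1p1, STAR 2.5.1b, DESeq2 1.6.3 and, as build, mm10, without saying what each did. The sources used here do not give the annotation, any filter or the strand setting of the counter, so reads of antisense partners may not be separable. The values deposited by the authors are a signal per gene: read counts divided by a size factor per library, as read from their steps, since 100% of values are whole multiples of 1 read within 0.01 reads. Of the 19736 entries, 97.0% matched the reference names and 27 read as dates. No pair of libraries within a group agreed within sampling noise.

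The members and gene lists were chosen with earlier results of these data known. The 14582 genes that reached 10 in 3 or more libraries were tested two-sided with limma 3.58.1 (R 4.3.3), after log2(value + 1), at a Benjamini-Hochberg adjusted p of 0.05. That scale understates the change of low genes. Members outside the filter took their test from the 19636 genes with a read. Genes named were the members, up to 3 of smallest p per list, Ccr6 and Foxp3. Members of highest mean per list and most marker genes are given only through their lists, and Gata3, Tbx21 and Rad50 were added as the main regulators and the gene within the cluster. The 3 genes most like Il4, Il13, Ifng and Il2 were also taken, and some of these are not reported here. Intervals are exact Poisson at 95% and cover counting error only. Alternatives were pseudocounts 0.5 and 8, no filter, a mean of at least 100, equal totals, TMM, quantile normalization, robust limma-trend, a replicate block, edgeR 4.0.16 and DESeq2 1.42.0 on recovered reads, and each library left out. EdgeR and DESeq2 without CCR6+ replicate 2 were chosen after seeing the data. The limma, edgeR and DESeq2 fits were run on simulated counts with known changes. No simulated library was made to stand apart from its group, so that run does not cover a library like CCR6+ replicate 2.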

Additional observations from a re-analysis of the deposited data

Results flagged for a closer look

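Among 36 genes checked, 3 had a CCR6- library far from the other 3 of its group by Dixon's test, which chance gives in about 5% of groups. Ifng had 210.9 normalised counts in CCR6- replicate 1, against 161.8 to 169.0 in the other CCR6- libraries. Fosl2 had 1279 in CCR6- replicate 1, against 895 to 948. Rad50 had 3499 in CCR6- replicate 4, against 1917 to 2155.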

How the results depend on the processing

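Where a setting gave an adjusted p, the 1 member past 0.05 was Ifng by DESeq2 without CCR6+ replicate 2 (-3.05, adjusted p = 0.0091). DESeq2 gave none for Il13 and Il2, and without CCR6+ replicate 2 none for Il4 and Il5 either. Over all settings the log2 difference of Ifng ran from -4.04 to -1.18 (adjusted p 0.0091 to 0.762), Il4 from 0.45 to 3.66, Il13 from 0.30 to 5.05 and Tnf from 0.17 to 0.75, without a change of sign. Il5 turned to -0.43 and Il2 to -0.68 under quantile normalization, and Il5 to -0.58 by edgeR and -0.53 by DESeq2 without CCR6+ replicate 2. Leaving out 1 library at a time gave -1.33 to 2.64 for Il5, -0.51 to 0.52 for Foxp3 and -0.44 to 0.0016 for Gata3. Foxp3 was 0.10 under quantile normalization, 0.048 by edgeR and 0.089 by DESeq2, and 0.43 and 0.50 by these without CCR6+ replicate 2, where DESeq2 gave 0.016 for Gata3. Quantile normalization gave -0.053 for Hpgds and -0.28 for Il3ra, and moved the median of all genes from 0.097 to -0.082. The cause was not tested.

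The number of genes called, 0, was 1 with a pseudocount of 0.5 or TMM scaling, 2 with a pseudocount of 8, with a mean of at least 100 or by edgeR, 4 under quantile normalization, 10 with robust limma-trend and 679 by DESeq2. Leaving out 1 library gave 0 to 1, the call coming without CCR6+ replicate 1. Without CCR6+ replicate 2, edgeR called 2 and DESeq2 184. It stayed 0 without a filter and at equal totals. With the replicate number as a block 0 genes were called, and Ifng was -2.53 (adjusted p = 0.762). Same-numbered libraries shared deviations of r = -0.128, -0.112 and 0.342. Differently numbered libraries of the 2 groups ranged from -0.756 to 0.690. With so few libraries per group, these values cannot decide whether the numbers pair the libraries. Depth limits Il4, Il5, Il13 and Il2: none of them has more than 41 reads in any single library other than CCR6+ replicate 2.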
